A study of Mus musculus with 8 samples.

Results

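Members of the placental and decidual gene families that mark the maternal and fetal sides of the mouse placental bed were examined in the gravid uterus of cyclooxygenase-1 (Cox-1) knockout and wild-type mice at gestational d18.0. A probe set was taken as a member when its platform symbol was a prolactin family gene (Prl followed by a digit), a pregnancy-specific glycoprotein (Psg followed by a digit), a Ceacam or Tpbp gene, the prolactin receptor Prlr, one of the placental cathepsins (Ctsj, Ctsm, Ctsq, Ctsr, Cts6, Cts7 or Cts8), Gcm1 or Dio3. The rule found 52 of the 28000 probe sets in the table, for 32 of the 13120 genes with a probe set of their own. By family these were 21 Ceacam, 12 trophoblast prolactin, 10 Psg, 5 Tpbp, 2 decidual prolactin and 2 cathepsin probe sets. Of the 66 genes in the RefSeq gene table that fit the rule, 33 had a probe set here, alone or shared; the rest, among them Prlr, Gcm1, Dio3, Prl3b1, Prl3c1, Prl3d1, Prl5a1 and Ctsq, were not analysed here.

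RNA of 4 Cox-1 KO and 4 wild-type uteri (WT) was hybridized to Affymetrix mouse 430 2.0 arrays, with 1 mouse per array and no treatment named for either group. The Cox-1 KO mice, which lack Ptgs1 (the gene of Cox-1) and deliver late, were on a C57BL/6 x Sv129 background according to the labels, whereas the WT mice were C57BL/6, so that strain and genotype cannot be told apart. Both groups were females of 6 to 16 weeks; the study's methods name the other parental strain 129P2 and start the age range later. Fetuses, fetal membranes and placentas had been removed according to the methods. Signals are the authors' MAS5 signals, an average brightness of the probes of a probe set, and have no detection calls.

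The probe set paired with Ptgs1 had signals of 88, 122, 76 and 136 on the Cox-1 KO arrays and 7048, 10610, 10756 and 10508 on the WT arrays, and so was low on every Cox-1 KO array. Array medians were 731 to 742 in Cox-1 KO and 734 to 757 in WT. All 10 smooth muscle markers of the myometrium were measured, with sums of 321319 to 343928 in Cox-1 KO and 310311 to 348809 in WT. The 8 arrays differed in a list of yolk sac and fetal liver genes, of which 20 of 25 were kept by the filter. Its summed signal was 461672, 49635, 367204 and 326800 on Cox-1 KO replicates 1 to 4 and 36976, 43097, 45008 and 301401 on WT replicates 1 to 4, with no marker at 0 on any array. Most of these transcripts were thus high on Cox-1 KO replicates 1, 3 and 4 and on WT replicate 4. Rbp4 was an exception, at 34145 to 39535 in Cox-1 KO and 26827 to 32440 in WT, and made up much of the sums on the other arrays. Some markers had very low signals there, such as Fgg, at 9 on WT replicate 1. In the families described here other arrays stood apart, namely WT replicate 1, on which many members were low, and WT replicate 2, on which many were high. Members whose values moved most with either array are therefore given with and without it.

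In the mouse, decidual cells of the maternal endometrium and trophoblast cells of the fetal placenta both secrete hormones of the expanded prolactin family. Some of these bind the prolactin receptor, which signals through Jak2 and Stat5, while most of the others act without it on blood vessels, blood cells or immune cells. Spongiotrophoblast, glycogen trophoblast and trophoblast giant cells of the junctional zone, next to the decidua, also express the Tpbp genes, the placental cathepsins, the Psg genes and several rodent Ceacam genes. The families are clustered, with the prolactin, Tpbp and cathepsin members on chromosome 13 and all Psg and Ceacam members on chromosome 7.

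Promoters of 28 member genes were present in the RefSeq promoter table (GRCm38.p6), each a short window around the start of the gene and mostly upstream of it. The pairs Tpbpa with Tpbpb and Psg23 with Psg28 are shown because the genes of each pair varied alike over the arrays, Prl7c1 as a trophoblast prolactin that was low on WT replicate 1, and Prl6a1 as a decidual prolactin that had neither pattern. Capitals mark matches, on either strand, to 4 motifs: TATAAA (the TATA box), TGANTCA (the AP-1 site), AGATAA (the site of GATA factors) and TTCNNNGAA (the Stat5 site). The letters are those of the gene's strand, 5′ to 3′, from Tpbpa at chr13:60941887-60942186 (minus strand), Tpbpb at chr13:60904798-60905097 (minus), Prl7c1 at chr13:27780755-27781054 (minus), Prl6a1 at chr13:27312365-27312664 (plus), Psg23 at chr7:18616452-18616751 (minus) and Psg28 at chr7:18432006-18432305 (minus).
Tpbpa: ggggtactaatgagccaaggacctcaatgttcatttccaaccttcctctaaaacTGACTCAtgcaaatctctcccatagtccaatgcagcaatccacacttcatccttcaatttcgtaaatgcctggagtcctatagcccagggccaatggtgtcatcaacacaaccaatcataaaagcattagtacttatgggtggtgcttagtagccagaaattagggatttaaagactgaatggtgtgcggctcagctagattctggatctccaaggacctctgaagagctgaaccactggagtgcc
Tpbpb: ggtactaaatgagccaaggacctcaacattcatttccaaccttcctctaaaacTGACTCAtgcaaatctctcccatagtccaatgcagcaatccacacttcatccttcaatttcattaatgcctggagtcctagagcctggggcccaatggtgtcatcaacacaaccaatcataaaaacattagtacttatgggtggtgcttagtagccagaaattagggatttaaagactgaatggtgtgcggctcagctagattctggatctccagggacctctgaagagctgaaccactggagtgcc
Prl7c1: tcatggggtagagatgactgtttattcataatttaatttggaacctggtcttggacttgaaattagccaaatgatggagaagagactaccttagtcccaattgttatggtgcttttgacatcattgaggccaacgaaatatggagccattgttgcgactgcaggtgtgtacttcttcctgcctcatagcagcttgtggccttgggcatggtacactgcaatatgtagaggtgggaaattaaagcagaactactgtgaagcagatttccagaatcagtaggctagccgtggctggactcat
Prl6a1: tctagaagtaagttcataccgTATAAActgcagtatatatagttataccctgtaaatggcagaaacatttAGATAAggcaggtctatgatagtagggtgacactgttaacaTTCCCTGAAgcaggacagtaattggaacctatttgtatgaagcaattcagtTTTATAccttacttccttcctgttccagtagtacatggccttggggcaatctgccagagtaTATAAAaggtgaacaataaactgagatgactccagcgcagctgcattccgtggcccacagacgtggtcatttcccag
Psg23: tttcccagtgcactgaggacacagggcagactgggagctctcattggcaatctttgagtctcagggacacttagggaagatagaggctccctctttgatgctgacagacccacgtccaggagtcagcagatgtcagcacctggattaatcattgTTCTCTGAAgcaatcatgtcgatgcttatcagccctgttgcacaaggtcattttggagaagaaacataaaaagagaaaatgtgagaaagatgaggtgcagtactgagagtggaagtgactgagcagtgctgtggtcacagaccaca
Psg28: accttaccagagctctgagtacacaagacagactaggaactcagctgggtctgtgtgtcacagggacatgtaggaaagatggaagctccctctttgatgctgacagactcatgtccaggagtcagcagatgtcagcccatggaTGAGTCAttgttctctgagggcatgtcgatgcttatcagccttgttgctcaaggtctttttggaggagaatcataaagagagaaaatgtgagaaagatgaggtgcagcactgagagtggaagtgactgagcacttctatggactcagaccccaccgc

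The Tpbpa and Tpbpb windows were identical over 95.7% of their alignment, and both held the AP-1 letters, at -196 and -197 from the start. Psg23 and Psg28 were identical over 82.4%, with the AP-1 letters in Psg28 and the Stat5 letters in Psg23, while Psg23 and Psg21 were identical over 96.4%. Prl6a1 held the TATA letters at -27 as well as at 2 places further upstream, together with GATA and Stat5 letters. No motif was found in the Prl7c1 window. Over the 28 member promoters, TGANTCA was present in 9 (7.9% of all 27025 promoters of this length), AGATAA in 11 (11.4%), TATAAA in 6 (14.2%) and TTCNNNGAA in 5 (8.5%). Near copies, such as Tpbpa with Tpbpb and Psg23 with Psg21, are counted separately, so the member promoters are not independent. The shares were not tested. These letters describe the sequence only, since no binding was measured.

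Of the 52 member probe sets, 45 reached a signal of 100 on 4 or more arrays, the filter applied to all probe sets, and they represented 27 genes. None of the 45 differed between Cox-1 KO and WT at an adjusted p under 0.05 in limma, for which the share of all 26444 probe sets was 0.0113%. The lowest adjusted p of a member was 0.526. At an unadjusted p under 0.05 limma gave 2 members higher in Cox-1 KO (Prl7b1 and Prl7c1) and 3 lower (Psg23, Psg28 and Ceacam12). That is 5 of 45, against 8.81% of all probe sets, with 3.69% higher and 5.12% lower. The count was 2 without Cox-1 KO replicate 2, 3 or 4, 3 without WT replicate 2 and 10, all lower in Cox-1 KO, without WT replicate 4. With the yolk sac genes as a covariate in the fit it was 1, and by the methods' t-test 0. The median log2 fold change (Cox-1 KO minus WT, given with its standard error, SE, for single genes) was -0.04 over the 45 probe sets and -0.03 over all probe sets kept. Mean log2 signal was higher in Cox-1 KO for 19 member probe sets and lower for 26 of 45, against 57.5% lower among all probe sets.

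The direction of the log2 fold changes varied by family, as the plot of fold changes by gene shows. Of the 10 trophoblast prolactin genes kept, 7 were on average higher in Cox-1 KO and 3 lower, at a median log2 fold change of 0.31. Both Tpbp genes were on average higher, while all 5 Psg genes were lower (median -0.68), and the Ceacam genes divided into 4 higher and 3 lower (median 0.10). The decidual prolactins had a median of 0.21. The Tpbp median was 0.35. The Ceacam median of 0.10 was the value of the brightest Ceacam11 probe set, and the 5 other probe sets of that gene gave -0.18 to -0.04. Without WT replicate 1 the medians were -0.09 for the trophoblast prolactins, -0.08 for the Tpbp genes, -0.90 for the Psg genes and -0.32 for the Ceacam genes, and without WT replicate 2 they were 0.63, 0.55, -0.32 and 0.21 in the same order. Without WT replicate 1 the trophoblast prolactin and Tpbp medians were thus near 0 and the Ceacam median was below 0, while the Psg median was below 0 in each case. With the filter applied anew without that array, 9 trophoblast prolactins were kept, 5 higher and 4 lower, at a median of 0.01. Of the Tpbp genes, Tpbpa was then at 0.02 and Tpbpb at -0.18. None of these medians was tested. In whole-uterus RNA, fewer cells of a type and less RNA per cell cannot be told apart.

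**Figure D1:**
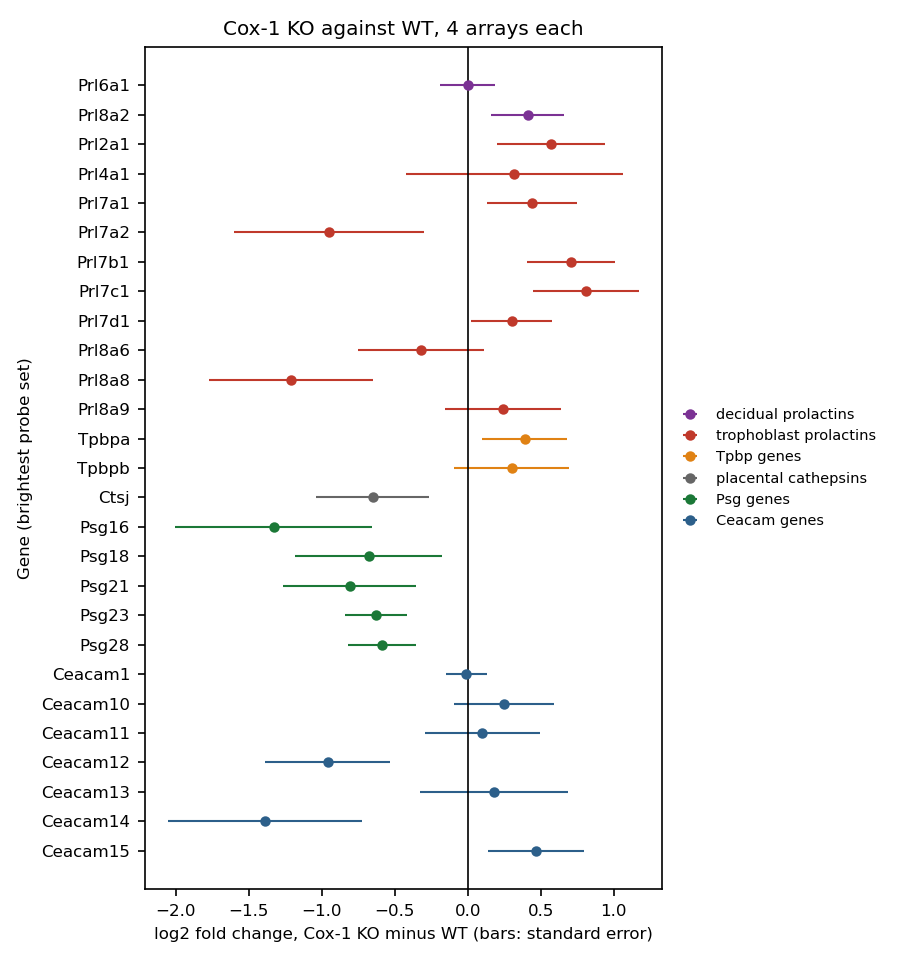
Log2 fold change of each gene kept (Cox-1 KO minus WT, x axis; bars are standard errors from limma, 4 arrays per genotype), with genes down the page and colours for the 6 families. All 5 Psg genes lie left of 0 and 7 of 10 trophoblast prolactins right of it, with Ceacam14 at -1.39 and Prl7c1 at 0.81 as the farthest in each direction.

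Prl8a2, the decidual prolactin-related protein and the classical product of mouse decidual cells, had signals of 20769, 38058, 20973 and 43884 on the Cox-1 KO arrays and 15065, 26846, 24395 and 23379 on the WT arrays. Cox-1 KO replicates 2 and 4 were above every WT array, while Cox-1 KO replicates 1 and 3 lay below 3 of the 4 WT arrays, so the groups overlapped. Prl8a2 averaged 30921 ± 11846 in Cox-1 KO and 22421 ± 5116 in WT (SD, n = 4 each). On the log2 scale the difference was 0.41 ± 0.252 (SE, limma adjusted p = 0.652). The log2 fold change was 0.23 without WT replicate 1, the lowest array, and 0.22 to 0.58 with single Cox-1 KO arrays left out, lowest without replicate 4 and highest without replicate 1. The split among the Cox-1 KO arrays did not follow the yolk sac genes, which were low on replicate 2 and high on replicate 4.

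Prl6a1, prolactin-like protein B, which in rat is made by decidua and also by trophoblast, had signals of 1940, 2899, 3204 and 1737 in Cox-1 KO and 2906, 2304, 2291 and 2043 in WT. The WT arrays lay within the range of the Cox-1 KO arrays. Its log2 fold change was 0.00 ± 0.187 (SE, limma adjusted p = 0.999), and it lay between -0.15 and 0.20 under the alternatives run. On WT replicates 1 and 2 the Prl6a1 signal was 1.27 and 1.01 times the median of the other 7 arrays, without the low and high values seen in trophoblast genes.

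Other genes listed for the decidua mostly had small differences between the genotypes. Of the 26 listed, 24 were kept, 15 of them on average higher in Cox-1 KO and 9 lower (median difference 0.04 on the log2 scale), and 1, the ligand gene Wnt4, had an unadjusted p under 0.05. Wnt4 signals were 928, 888, 676 and 765 in Cox-1 KO and 526, 670, 760 and 448 in WT (log2 fold change 0.46, limma adjusted p = 0.531). Bmp2, a ligand required for decidualization, had 300, 329, 302 and 376 in Cox-1 KO and 274, 208, 351 and 167 in WT, with overlapping groups. Hoxa10 and Hoxa11, transcription factors of the endometrial stroma, had log2 fold changes of -0.14 and -0.17. The summed signal of the 24 genes was 151291 to 169969 in Cox-1 KO and 145560 to 169637 in WT. Des, the brightest of them at 24808 to 30007, is also one of the myometrial markers, so this sum is not of decidua alone.

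Among the trophoblast prolactins, Prl2a1, prolactin-like protein M, a hormone of the junctional zone, had signals of 14344, 19260, 15264 and 12036 in Cox-1 KO and 3800, 15562, 15571 and 11205 in WT. WT replicate 1 was at 0.249 times the median of the other arrays, and the 3 remaining WT arrays overlapped the Cox-1 KO arrays. Its log2 fold change was 0.57 ± 0.373 (SE, limma adjusted p = 0.671), and 0.11 without WT replicate 1.

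Prl7b1, prolactin-like protein N, a product of the trophoblast that invades the decidua, had signals of 10681, 12273, 10557 and 9774 in Cox-1 KO and 3020, 10742, 8487 and 6846 in WT. Here 3 of the 4 WT arrays lay below every Cox-1 KO array and only WT replicate 2 reached into their range. Means were 10821 ± 1048 in Cox-1 KO and 7274 ± 3255 in WT (SD, n = 4 each). This gave a log2 fold change of 0.71 ± 0.301 (SE), with an unadjusted p of 0.0380 and an adjusted p of 0.553 in limma and p = 0.114 in the exact two-sided permutation test. Without WT replicate 1 the log2 fold change was 0.34 (limma unadjusted p = 0.0311, adjusted p = 0.718). Without WT replicate 2 it was 0.95 (limma unadjusted p = 0.0079, adjusted p = 0.695). With single arrays left out the limma unadjusted p was 0.0079 to 0.0792, highest without Cox-1 KO replicate 2.

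Prl7c1, prolactin-like protein O, had the same order of WT arrays as Prl7b1. Its signals were 1909, 2236, 1761 and 1848 in Cox-1 KO and 458, 2203, 1398 and 1040 in WT. The Cox-1 KO arrays lay close together, with WT replicate 2 among them and the other 3 WT arrays below. The log2 fold change was 0.81 ± 0.363 (SE, unadjusted p = 0.0470, adjusted p = 0.561, limma), and 0.39 without WT replicate 1, where the unadjusted p was 0.0927. Without WT replicate 2 it was 1.14 (limma unadjusted p = 0.00406, adjusted p = 0.639). With single arrays left out the limma unadjusted p was 0.00406 to 0.0939, highest without Cox-1 KO replicate 2.

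Prl7d1, proliferin-related protein, which inhibits vessel growth, had signals of 2581, 3659, 2745 and 2161 in Cox-1 KO and 1206, 3243, 3081 and 2026 in WT. It was lowest on WT replicate 1, and the other WT arrays lay within or near the Cox-1 KO range. Over all arrays the log2 fold change was 0.30 ± 0.277 (SE, limma adjusted p = 0.774), and 0.01 without that array, against 0.48 without WT replicate 2. The proliferin genes (Prl2c), whose products promote vessel growth, were represented by probe sets that are also annotated to Gm7040 and so fall outside the rule. The brighter of these had signals of 5720, 7606, 5492 and 5061 in Cox-1 KO and 2551, 5452, 5482 and 3121 in WT (log2 fold change 0.59, limma adjusted p = 0.538), again lowest on WT replicate 1, without which the log2 fold change was 0.38.

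Prl8a6, Prl8a8 and Prl8a9, which code for forms of prolactin-like protein C, a product of spongiotrophoblast, had another pattern, being high on WT replicate 2. Prl8a9 had signals of 3322, 2819, 2529 and 2390 in Cox-1 KO and 960, 5346, 2933 and 1919 in WT. Its lowest and highest values were thus both WT, and the WT range enclosed the Cox-1 KO range. Its log2 fold change was 0.24 ± 0.397 (SE, limma adjusted p = 0.880), against -0.18 without WT replicate 1 and 0.64 without WT replicate 2, so that its direction turned with a single array.

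Prl8a6, of the same branch, had signals of 787, 1028, 780 and 435 in Cox-1 KO and 435, 2064, 1258 and 589 in WT. WT replicates 2 and 3 were above every Cox-1 KO array and WT replicate 1 was level with the lowest. Over all arrays the log2 fold change was -0.32 ± 0.432 (SE, limma adjusted p = 0.852), but 0.08 without WT replicate 2 and -0.67 without WT replicate 1. Prl8a8 had 146, 73, 102 and 76 in Cox-1 KO and 167, 724, 256 and 77 in WT, where WT replicate 2 was 7.10 times the median of the others (log2 fold change -1.21, limma adjusted p = 0.570, and -0.64 without that array).

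The remaining trophoblast prolactins had low signals. Prl7a2, prolactin-like protein F, which acts on megakaryocytes, had 553 on WT replicate 2 and 39 to 152 on the other 7 arrays (log2 fold change -0.95, and -0.31 without WT replicate 2). Prl7a1, prolactin-like protein E, of similar action, was 107 to 148 in Cox-1 KO and 60 to 132 in WT (log2 fold change 0.44). Prl4a1, prolactin-like protein A, which binds uterine natural killer cells, was 110 to 293 in Cox-1 KO and 22 to 403 in WT, with WT replicate 1 at the low end and WT replicate 2 at the high end (log2 fold change 0.32, against -0.58 without WT replicate 1 and 0.82 without WT replicate 2). Prl3a1 and Prl2b1, prolactin-like proteins I and K, did not pass the filter. Their highest signals, 246 and 202, were also on WT replicate 2.

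**Figure D2:**
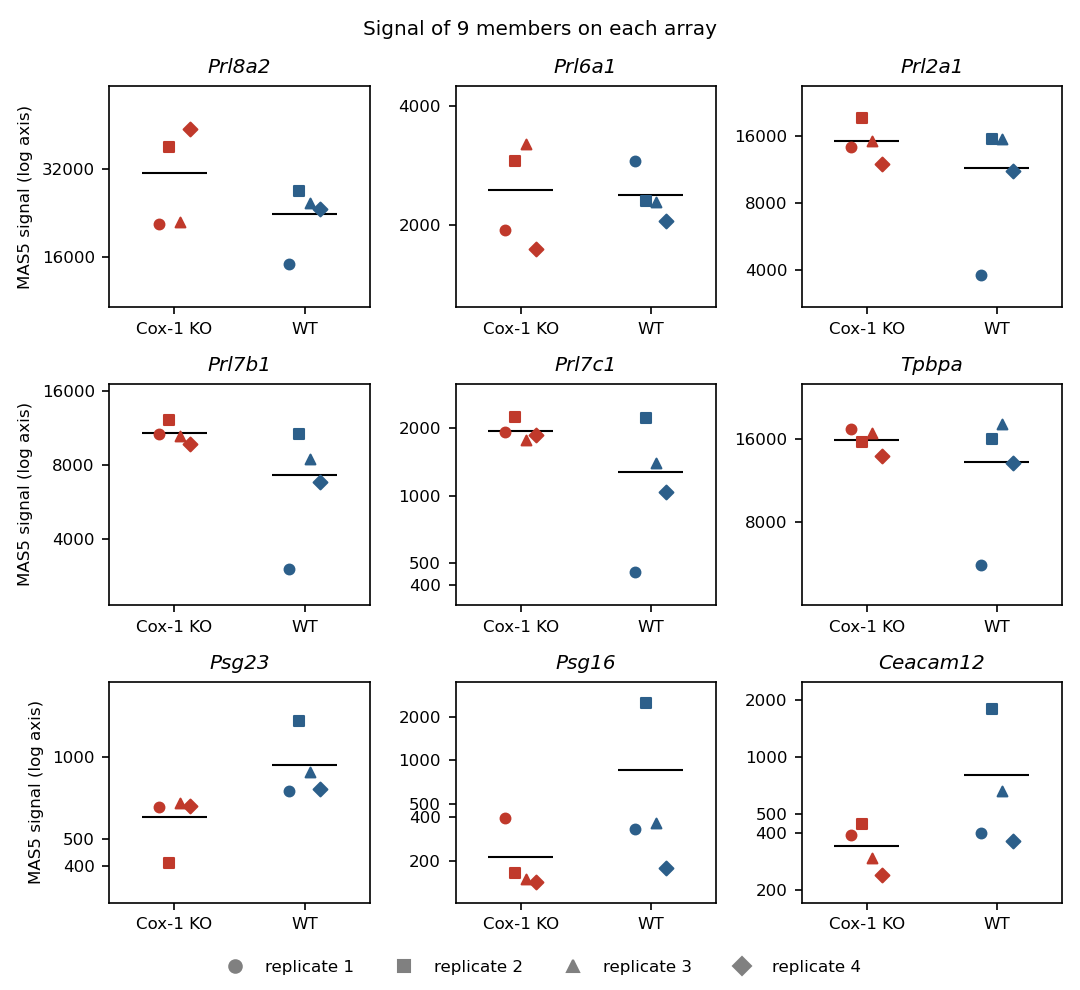
MAS5 signal (log axis) of 9 members on each array, with Cox-1 KO in red on the left and WT in blue on the right, a marker shape for each replicate and a line at the mean of each group. WT replicate 1 (circle) is the lowest point for Prl2a1, Prl7b1, Prl7c1 and Tpbpa, and WT replicate 2 (square) the highest for Psg23, Psg16 and Ceacam12.

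Tpbpa, the trophoblast specific protein that marks spongiotrophoblast and its glycogen cell relatives, had signals of 17387, 15619, 16819 and 13871 in Cox-1 KO and 5604, 15962, 18147 and 13103 in WT on its brightest probe set. The gene was thus well above the filter on all 8 arrays of uteri from which placentas had been removed. WT replicate 1 stood at 0.351 times the median of the others, and the other 3 WT arrays spanned the Cox-1 KO range. Over all arrays the log2 fold change was 0.39 ± 0.290 (SE, limma adjusted p = 0.711), and 0.02 without WT replicate 1, and the other probe sets of the gene gave 0.47 and 0.12.

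Tpbpb, its neighbour and close copy, had signals of 7596, 7580, 5539 and 5438 in Cox-1 KO and 1916, 9266, 7665 and 5518 in WT. The order of the WT arrays was as for Prl7b1, from WT replicate 1 at the bottom to WT replicate 2 at the top. Its log2 fold change was 0.30 ± 0.391 (SE, limma adjusted p = 0.843), against -0.18 without WT replicate 1 and 0.58 without WT replicate 2. A probe set that hybridizes to both copies would not separate them.

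Of the placental cathepsins, cysteine proteases of trophoblast, only Ctsj was kept, with signals of 158, 188, 156 and 92 in Cox-1 KO and 431, 299, 164 and 121 in WT. It was the only gene kept that was highest on WT replicate 1. Its log2 fold change was -0.65 ± 0.387 (SE, limma adjusted p = 0.647), and -0.33 without that array. Ctsm was 13 to 59 in Cox-1 KO and 37 to 161 in WT, highest on WT replicate 2, and did not pass the filter.

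The Psg genes, whose secreted products from trophoblast act on macrophages, platelets and vessels, were on average lower in Cox-1 KO in each of the 5 cases kept. Psg23 had signals of 660, 410, 678 and 661 in Cox-1 KO and 753, 1353, 882 and 766 in WT. All Cox-1 KO arrays were below all WT arrays, which was so for 1 of 45 member probe sets and for 2.91% of all probe sets (4.41% with either direction). Psg23 averaged 602 ± 128 in Cox-1 KO and 938 ± 282 in WT (SD, n = 4 each), and the log2 fold change was -0.63 ± 0.212 (SE). The unadjusted p was 0.0130 and the adjusted p 0.526 in limma, and the exact two-sided permutation test gave p = 0.0286, the smallest that 4 arrays against 4 allow. Over the alternatives run the log2 fold change lay between -0.73 and -0.44 and the adjusted p between 0.351 and 0.971.

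Psg28 had signals of 381, 296, 319 and 311 in Cox-1 KO and 370, 846, 432 and 422 in WT. Only Cox-1 KO replicate 1 and WT replicate 1 overlapped, and WT replicate 2 was 2.29 times the median of the others. Over all arrays the log2 fold change was -0.59 ± 0.233 (SE, unadjusted p = 0.0285, adjusted p = 0.538, limma), but -0.32 without WT replicate 2, where the unadjusted p was 0.0556. Psg21 had 602, 340, 528 and 363 in Cox-1 KO and 539, 2199, 896 and 347 in WT, with overlapping groups apart from WT replicates 2 and 3. Over all arrays the log2 fold change was -0.81 ± 0.457 (SE, limma adjusted p = 0.629), and -0.31 without WT replicate 2. A second Psg21 probe set gave -0.47 and a probe set shared by Psg21 and Psg23 gave -0.63.

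Psg16 had the widest spread of the family, with 394, 165, 149 and 142 in Cox-1 KO and 333, 2533, 365 and 177 in WT. WT replicate 2 was 14.3 times the median of the others, and the other 3 WT arrays lay within the Cox-1 KO range. The log2 fold change was -1.33 ± 0.676 (SE, limma adjusted p = 0.597), and -0.53 without WT replicate 2. Psg18 was 67 to 141 in Cox-1 KO and 101 to 119 on WT replicates 1, 3 and 4, against 487 on WT replicate 2 (log2 fold change -0.68, and -0.14 without that array). Psg17 and Psg19 did not pass the filter, with 19 to 87 in Cox-1 KO and 21 to 146 in WT over their 3 probe sets. Probe sets of these near-identical genes may hybridize to several family members, so values of single Psg genes are uncertain.

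The Ceacam genes code for adhesion molecules, of which Ceacam1 is made by epithelia and endothelia and Ceacam11 to Ceacam14 by rodent trophoblast. Ceacam1 had signals of 5060, 5214, 4090 and 4190 in Cox-1 KO and 3462, 5598, 5216 and 4618 in WT on its brightest probe set. The groups overlapped and the log2 fold change was -0.01 ± 0.140 (SE, limma adjusted p = 0.986). Its 6 other probe sets gave -0.25 to 0.02, and probe sets shared with Ceacam2 gave -0.21 and 0.03.

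Ceacam11 had signals of 5221, 6078, 5324 and 4172 in Cox-1 KO and 2042, 11424, 5742 and 4035 in WT. As for Prl8a9, WT replicates 1 and 2 were the lowest and the highest of all arrays. Its log2 fold change was 0.10 ± 0.394 (SE, limma adjusted p = 0.962), against -0.32 without WT replicate 1 and 0.51 without WT replicate 2, and the 5 other probe sets gave -0.18 to -0.04.

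Ceacam12 had signals of 388, 442, 293 and 239 in Cox-1 KO and 398, 1790, 661 and 362 in WT. WT replicates 2 and 3 were above every Cox-1 KO array, and WT replicate 2 was 4.61 times the median of the others. Over all arrays the log2 fold change was -0.96 ± 0.429 (SE, unadjusted p = 0.0475, adjusted p = 0.562, limma), but -0.46 without WT replicate 2, where the unadjusted p was 0.111.

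Ceacam14 had signals of 221, 117, 104 and 100 in Cox-1 KO and 284, 1571, 293 and 97 in WT (log2 fold change -1.39 ± 0.662, SE, limma adjusted p = 0.575). WT replicate 2 was 13.4 times the median of the others, while WT replicate 4 was the lowest of all arrays, and without WT replicate 2 the log2 fold change was -0.65. Ceacam13 was 151 to 244 in Cox-1 KO, against 48 on WT replicate 1 and 382 on WT replicate 2 (log2 fold change 0.18, against -0.38 without WT replicate 1 and 0.62 without WT replicate 2). Ceacam10, a secreted family member, was 80 to 173 in Cox-1 KO and 63 to 132 in WT on the probe set kept (log2 fold change 0.25, and 0.05 without WT replicate 1), and 10 to 89 in Cox-1 KO and 30 to 73 in WT on the one that was not. Ceacam15, at 105 to 169 in Cox-1 KO and 57 to 143 in WT (log2 fold change 0.47, and 0.21 without WT replicate 2), was the only gene kept that was lowest on WT replicate 2.

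**Figure D3:**
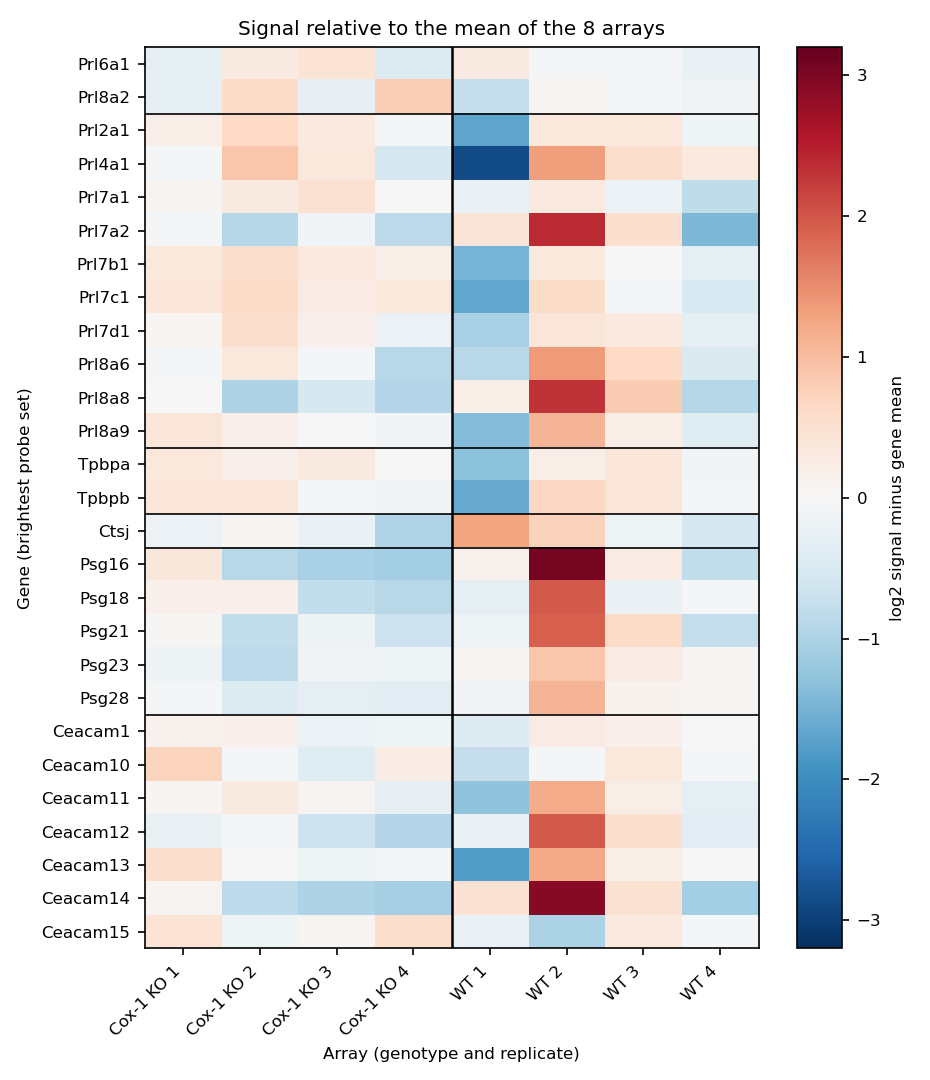
Log2 signal of the 27 genes kept on each of the 8 arrays, relative to the mean of the gene over the arrays (colour scale, red above and blue below the mean), with Cox-1 KO left of the vertical line and WT right of it and horizontal lines between families. The WT replicate 1 column is lowest for 13 genes, among them both Tpbp genes, and the WT replicate 2 column highest for 16, among them all 5 Psg genes.

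The spread among the WT arrays was thus larger than the spread among the Cox-1 KO arrays for most members. The SD of log2 signal was larger in WT for 40 of 45 member probe sets (24 of 27 genes), against 49.1% of all probe sets. WT replicate 2 was the highest array for 29 of 45 member probe sets and WT replicate 1 the lowest for 26, each against 13.4% of all probe sets. These are descriptions of single arrays and were not tested.

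The members differed in which WT array stood apart, but the 2 sets given next overlap. Ceacam11, Ceacam13, Prl4a1 and Prl8a9 were in both, and some genes were in neither. WT replicate 1 was at or below 0.5 times the median of the other 7 arrays for 10 of 27 genes (16 of 45 probe sets, against 2.00% of all probe sets), of which 6 were trophoblast prolactins, 2 Tpbp and 2 Ceacam genes. The ratio on this array was 0.253 to 0.351 for the Tpbp genes, against 0.849 to 1.88 for the Psg genes and 0.618 to 1.27 for the decidual prolactins. WT replicate 2 was at or above 2 times the median of the others for 13 of 27 genes (19 of 45 probe sets, against 0.268% of all probe sets), of which 5 were trophoblast prolactins, 4 Psg and 4 Ceacam genes. The ratio there ran from just under 2 for Psg23 to 14.3 for Psg16 among the Psg genes, and was 1.02 to 1.67 for the Tpbp genes and 1.01 to 1.15 for the decidual prolactins. Of all 71 probe sets that high on WT replicate 2, members made up 26.8%, while these were 42.2% of the members kept. Among the non-members were Cts3, a further cathepsin gene of the placental cluster (6.28 times the median of the others), and the pseudogene Psg-ps1 (2.88 times). Most non-members were outside these families, such as Klk1b24 (3.38 times), Ovgp1 (2.83 times), Prss29 (2.35 times) and Ctse (2.12 times). The Ptgs1 probe set (78.0 times) was also among them, being low on every Cox-1 KO array. Not all were highest on WT replicate 2. Klk1b24 was 5673 on WT replicate 1, 2948 on WT replicate 2 and 640 to 871 in Cox-1 KO. Ovgp1 was 5566 on Cox-1 KO replicate 4, against 1945 on WT replicate 2.

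**Figure D4:**
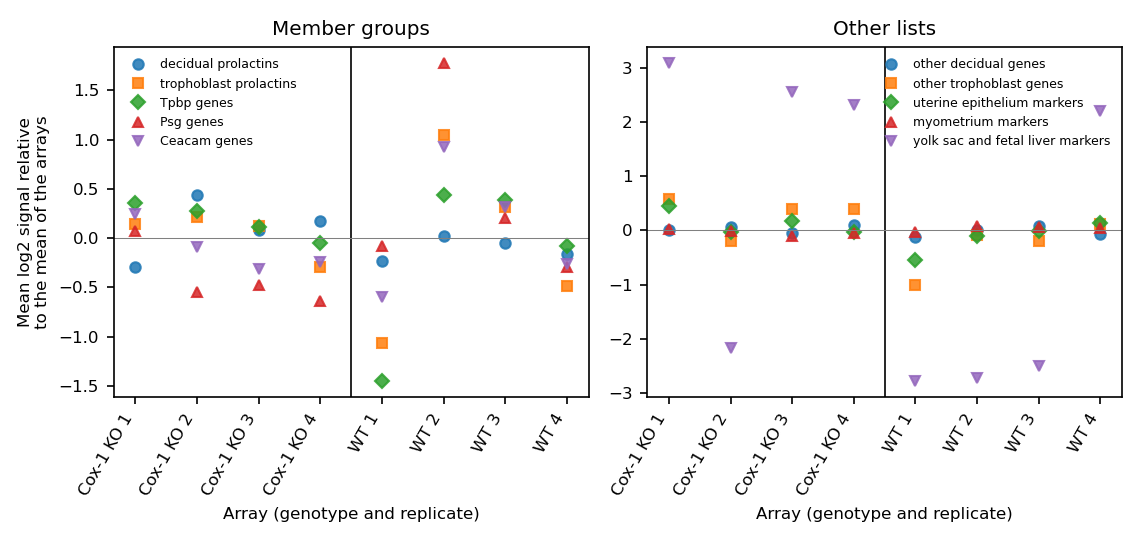
Mean log2 signal of gene lists on each array, relative to the mean over the 8 arrays (y axis), with Cox-1 KO left of the line and WT right of it; the left panel holds member families and the right panel other lists. WT replicate 1 is low for Tpbp genes (-1.45) and trophoblast prolactins (-1.06), WT replicate 2 is high for Psg genes (1.78) and trophoblast prolactins (1.05), and the yolk sac list follows another set of arrays.

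Other trophoblast genes, from a list of 30 of which 19 were kept, followed WT replicate 1 but not WT replicate 2. Of these 18 were on average higher in Cox-1 KO and 1 lower, at a median log2 fold change of 0.54. In limma 4 of the 19 had an unadjusted p under 0.05, all higher, against 3.69% of all probe sets, and the lowest adjusted p was 0.538. Without WT replicate 1 the median was 0.17, with 14 higher and 5 lower, and the count was 1. It was also 1 without Cox-1 KO replicate 3, and 2 without Cox-1 KO replicate 1 or 4. The count was 3 without WT replicate 2, 3 or 4, and 6 without Cox-1 KO replicate 2 (lowest limma adjusted p = 0.133). Plac1, an X-linked gene of trophoblast, had signals of 802, 953, 876 and 920 in Cox-1 KO and 257, 951, 711 and 727 in WT. Sct, which codes for secretin, had 2393, 2768, 2351 and 1780 in Cox-1 KO and 778, 2742, 2373 and 1606 in WT. Both were low on WT replicate 1 alone, as Tpbpa was. The homeobox gene Rhox5 had 5918, 604, 4095 and 2669 in Cox-1 KO and 252, 557, 611 and 2379 in WT, and was high on the same 4 arrays as the yolk sac genes. So was Nrk, with 1709, 367, 1391 and 1244 in Cox-1 KO and 282, 276, 273 and 1149 in WT. Rhox5 and Nrk were both among the 4 genes with an unadjusted p under 0.05. Eomes, another of them, had 221, 325, 276 and 338 in Cox-1 KO and 215, 254, 204 and 136 in WT. Pparg, the last, had 313, 250, 331 and 435 in Cox-1 KO and 158, 199, 327 and 200 in WT. The list therefore holds genes of at least 2 array patterns. Some had neither, such as Slc16a3, at 1.31 times the median of the others on WT replicate 1.

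The lists of other cell types did not have the pattern of the families on WT replicate 2. Relative to the mean of the arrays, WT replicate 2 was at -0.10 on the log2 scale for 10 epithelial markers, 0.08 for 10 myometrial markers, 0.00 for the other decidual genes and 0.00 for 8 endothelial markers. The myometrial and other decidual lists share Des. On WT replicate 1 the epithelial markers were at -0.55, with summed signals of 139433 to 167766 in Cox-1 KO and 101558 on WT replicate 1, against 138771 to 149685 on the other WT arrays. Ltf, the lactotransferrin of uterine glands, was 27221 to 38370 in Cox-1 KO and 10620 on WT replicate 1, against 27077 to 36265 on the other WT arrays. The epithelial markers were not equally low on WT replicate 1. Ltf was at 0.384 and Foxa2 at 0.298 times the median of the other arrays, against 0.537 (Muc1) to 0.948 (Epcam) for the rest. Foxa2 had 717, 76, 377 and 255 in Cox-1 KO and 76, 94, 116 and 378 in WT, and so was high on the same arrays as the yolk sac genes. The myometrial, other decidual and endothelial lists were at -0.04, -0.13 and 0.08 on WT replicate 1. The part of the epithelial markers in the low values of trophoblast genes on this array was not tested.

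Of the markers of uterine natural killer cells, which lie beside the invading trophoblast, 10 of 12 were kept and 9 were on average higher in Cox-1 KO, 8 of these at an unadjusted p under 0.05 in limma, against 3.69% of all probe sets. The lowest adjusted p was 0.309, so none passed the adjusted threshold. Their summed signal was 125753, 168095, 162814 and 187548 on Cox-1 KO replicates 1 to 4 and 105575 to 133619 in WT, while Prl8a2 was high on replicates 2 and 4 but not on replicate 3. Most of the 8 counted were granzyme genes (Gzmb to Gzmg). Probe sets of this family may hybridize to several of its members, so the 8 are not separate results.

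The receptor Prlr was not analysed here, and its activity was not measured. Of 15 listed genes of prolactin receptor signalling 12 were kept. Their transcripts were on average higher in Cox-1 KO for 9 and lower for 3, at a median log2 fold change of 0.06. The lowest limma unadjusted p was 0.0873, for Socs2 (adjusted p = 0.608). Stat5a and Stat5b, which carry the signal to the nucleus, averaged 1143 ± 62.4 and 1791 ± 399 in Cox-1 KO and 1069 ± 195 and 1491 ± 170 in WT (SD, n = 4 each). Cish, a feedback inhibitor induced by Stat5, averaged 2283 ± 622 in Cox-1 KO and 1861 ± 315 in WT. Akr1c18, which inactivates progesterone before birth and is restrained by prolactin receptor signals in the ovary, had a log2 fold change of 0.01.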

How the data were processed

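Uterine RNA of 4 Cox-1 KO and 4 WT mice at d18.0 was measured on Affymetrix mouse 430 2.0 arrays. The deposited values are signal intensities on a linear scale, computed by the authors with MAS5 and scaled to a target intensity of 1000 per array. How the 28000 probe sets were chosen is not given in the sources used here, nor are detection calls, counts or batches, and the number of arrays limits the precision.

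Groups were taken from the sample titles, and the mice of a group are separate animals according to the methods. Of all probe sets 23579 carried 1 gene symbol in the platform annotation, 653 several and 3768 none, and 60 array controls were left out. Signals under 1 were set to 1 (1 value), taken to log2 and kept at 100 or more on at least 4 arrays, a filter that stands in for the present calls of the methods. Cox-1 KO was compared with WT by limma 3.58.1 (R 4.3.3; lmFit, then eBayes with a mean-variance trend) over all 26444 probe sets, with Benjamini-Hochberg adjustment and a threshold of 0.05. All log2 fold changes are Cox-1 KO minus WT. Exact permutation tests were two-sided over the 70 assignments of the arrays. The fit was tested on simulated data.

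A gene was represented by its brightest probe set kept. Probe sets with several symbols were members where every symbol fitted the rule and named no gene. Values on each array were planned for members with a median signal of 500 or more or an unadjusted p under 0.05, 16 in all, and values of further members were added after they were seen. The members and lists were chosen with earlier results of these data known. Promoters are from RefSeq (GRCm38.p6), and the 6 printed were chosen after seeing the values. Alternatives were an added constant of 32, a floor of 100, array weights, a robust prior, no trend, median centring or quantile normalization, a filter at 200 or none, the methods' t-test and thresholds, a covariate for yolk sac genes, a replicate block, other probe sets and each array left out. The fit without both WT replicates 1 and 2 was added after seeing the data. Northern blots and other gestational days were not analysed here. Python 3.11.15 with pandas 2.3.3, numpy 2.4.6 and matplotlib 3.10.9 was used for tables and plots.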

Additional observations from a re-analysis of the deposited data

Results flagged for a closer look

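Within the 4 arrays of a genotype, a signal stood far from the other 3 on the log2 scale in 5 of the 94 groups tested (45 member probe sets and the Prl2c pair, each genotype separately). Chance flags about 1 in 20 groups, so 5 flags are near that share. Psg23 was 410 on Cox-1 KO replicate 2, against 660 to 678 on the other Cox-1 KO arrays, and without this array the log2 fold change of Psg23 was -0.45, against -0.63 with it. Psg16 was 394 on Cox-1 KO replicate 1, against 142 to 165 on the others. Ceacam13 was 244 on Cox-1 KO replicate 1, against 151 to 163. On WT replicate 2, Psg18 was 487, against 101 to 119 on the other WT arrays, and the second Psg21 probe set was 718, against 297 to 343.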

How the results depend on the processing

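Over all probe sets, 3 had an adjusted p under 0.05 in limma. That count was 18 with array weights, 10 with a constant of 32 added, 11 with median centring, 6 with a robust prior, 12 with signals under 100 set to 100 and 15 without both WT replicates 1 and 2, an alternative chosen after seeing the data. The methods' thresholds, which take an unadjusted p and a fold change in place of an adjusted p, gave 228, a count of another kind. With each array left out the count at an adjusted p under 0.05 was 2 to 25, with 25 without WT replicate 1 and 9 without Cox-1 KO replicate 2 or 4. No member was among the 228. Of 351 values of the 16 members planned to be named, none had an adjusted p under 0.05 (lowest 0.351, Psg23).

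Member probe sets with an unadjusted p under 0.05 numbered 5. They were 2 with no trend or a robust prior, 0 by the methods' t-test and 1 with the yolk sac covariate. With each array left out they were 2 to 10, with 2 without Cox-1 KO replicate 2, 3 or 4, 3 without WT replicate 2 and 10, all lower in Cox-1 KO, without WT replicate 4. The causes were not tested. With the replicate number as a block 9 members were counted, all 5 included, and 3 probe sets were called overall. The methods state that samples were processed side by side in balanced groups, but do not link these groups to the replicate numbers. The deviations of same-numbered arrays correlated at -0.25, 0.22, -0.18 and 0.17, and not every array was closest to its own number. With 4 arrays per genotype, whose deviations sum to 0, these correlations cannot decide whether the numbers mark shared processing.

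The log2 fold changes of Prl8a9, Tpbpb, Ceacam11, Ceacam13 and Prl4a1 changed sign without WT replicate 1, that of Ceacam11 also with array weights, and that of Prl8a6 without WT replicate 2 and with the yolk sac covariate. Those of Ceacam1 and Prl6a1, near 0, took both signs. With signals near the filter of 100 and no detection calls, Prl7a1, Prl7a2, Prl8a8, Psg18, Ceacam10, Ceacam15 and Ctsj are the least certain.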
